A study of Mus musculus with 8 samples.

Results

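The L1Md subfamilies are the young L1 retrotransposons of the mouse genome. They were taken from the deposited count table as every repeat entry of the L1 family whose name starts with L1Md. That gave 6 entries, L1Md_T, L1Md_A, L1Md_Gf, L1Md_F, L1Md_F2 and L1Md_F3, of 133 L1 entries, 1153 repeat subfamilies and 25215 entries in all. All 6 passed the filter on low counts, as did 120 of the 127 other L1 entries. Each entry sums reads over all copies of a subfamily in the genome, so no single position belongs to a value.

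L1 elements copy themselves through an RNA intermediate. A full-length element carries its own promoter, an RNA-binding protein (ORF1) and an endonuclease and reverse transcriptase (ORF2). In the mouse the promoter is an array of short repeated units called monomers, and the A, T, Gf and F names refer to different monomer types. The A, T (also written Tf) and Gf types include copies that can still move, whereas the F types are older. Most copies of every type are truncated at their 5′ end and cannot make their own RNA. In somatic cells L1 promoters are held silent by DNA methylation and by H3K9 methylation, with KAP1 (Trim28) and the HUSH complex among the factors that bring H3K9 methylation to them.

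The samples were polyadenylated RNA of an immortalized mouse embryonic fibroblast line with 6 genes knocked out. These were Ring1b, a ubiquitin ligase of the Polycomb complex PRC1, and 5 H3K9 methyltransferases, namely Ehmt1, Ehmt2, Setdb1, Suv39h1 and Suv39h2. All groups shared these knockouts. The combined group received a lentiviral shRNA against Ring1a and 1 uM DS3201, an inhibitor of EZH1 and EZH2, for 7 days. The shRNA vectors were selected with blasticidin. The inhibitor group received the control shRNA and the same DS3201 treatment, the knockdown group the Ring1a shRNA alone, and the control the control shRNA alone. Each group had 2 libraries, 8 in all, and column names place 1 library of each group in a set called 20 and 1 in a set called 28. The labels give each replicate number a batch of its own, without saying which number is which set, and nothing says that the cultures were separate, so the p-values refer to the spread among these libraries, which may be technical. No library with intact H3K9 methylation was analysed here, so the levels below are those of cells in which that layer is already lost.

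Total counts ran from 12738585 to 23688253 per library. Ring1 (Ring1a; chr17, 34020792 to 34024680, minus strand, mm10) was 2.04 and 3.52 CPM (counts scaled to library size, with TMM factors) in the combined group in sets 28 and 20, 7.51 and 20.4 CPM in the inhibitor group, 1.41 and 4.51 CPM in the knockdown group, and 9.73 and 20.2 CPM in the control. It was lower with the Ring1a shRNA within both sets, and the knockdown against the control gave -2.32 ± 0.76 on the log2 scale (edgeR adjusted p = 1, and 0.705 with the set as a replicate block), so the difference did not pass there. The combined group against the control gave -2.43 ± 0.77, which passed with the block (adjusted p = 0.00467) and not without it (adjusted p = 0.211). Fibroblast markers summed to 12200 to 13900 CPM in the combined group, 13100 to 14700 CPM in the inhibitor group, 18200 to 20800 CPM in the knockdown group and 19900 to 20100 CPM in the control, and 2 of the 10, Thy1 and Fap, averaged under 1 CPM. Their sum was lower with DS3201, and the collagen genes Col1a1, Col1a2 and Col3a1, and Pdgfrb, were lower with it within both sets. Vim, Twist1, Fn1 and Prrx1 had no common direction. Vim was 2770 and 1930 CPM in the combined group and 2860 and 1760 CPM in the inhibitor group, in sets 28 and 20. It was 2270 and 1890 CPM in the knockdown group, and 2880 and 2130 CPM in the control. Twist1 was 22.1 and 15.9, 27.3 and 12.1, 24.3 and 10.7, and 23.4 and 7.18 CPM in the same order. The part of these levels in the L1Md values was not tested. In bulk RNA, fewer cells of a type and less RNA per cell cannot be told apart. The markers of pluripotent cells (4 of 4) and germ cells (3 of 3) averaged under 1 CPM, and those of 2-cell-like cells summed to 208 to 281 CPM in the combined group, 243 to 259 CPM in the inhibitor group, 29.7 to 37.8 CPM in the knockdown group and 20.2 to 30.1 CPM in the control.

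One library stood apart in its L1 content. The inhibitor library of set 28 gave 1.35% of its counts to the L1Md entries (95% interval 1.35 to 1.36%, exact binomial, counting error only), against 0.543% (0.539 to 0.547%) in the control library of the same set. In the other 6 libraries the share ran from 0.378% to 0.617%. It is named beside every result that rests on it.

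L1Md_T, the entry of the Tf type, had 2776.9 and 1587 CPM in the combined group in sets 28 and 20. It had 6933.3 and 1621.7 CPM in the inhibitor group, 2344 and 1165.6 CPM in the knockdown group, and 2583.3 and 1458.7 CPM in the control. Set 28 lay above set 20 in all 4 groups, and its inhibitor library lay far above the other 7, which ran from 1165.6 to 2776.9 CPM.

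L1Md_A had 831.8 and 708.6 CPM in the combined group, 2248.3 and 703 CPM in the inhibitor group, 731.3 and 587.3 CPM in the knockdown group, and 755.4 and 663.6 CPM in the control, again in sets 28 and 20. Without the inhibitor library of set 28 its values stayed between 587.3 and 831.8 CPM, and each set had its lowest value in the knockdown group. L1Md_Gf had 93.58 and 119.2 CPM in the combined group, 246.1 and 123.5 CPM in the inhibitor group, 71.48 and 100.1 CPM in the knockdown group, and 82.35 and 125.2 CPM in the control. Outside the inhibitor group, set 28 was here the lower one in every group, the opposite of L1Md_T.

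Of the F types, L1Md_F had 79.47 and 89.41 CPM in the combined group, 195 and 90.84 CPM in the inhibitor group, 63.47 and 70.68 CPM in the knockdown group, and 66.78 and 76.41 CPM in the control. L1Md_F2 had 2092.4 and 1611.7 CPM in the combined group, 4892.5 and 1629.8 CPM in the inhibitor group, 1817.8 and 1482.6 CPM in the knockdown group, and 1835.7 and 1682.4 CPM in the control. L1Md_F3 had 310.3 and 311 CPM in the combined group, 715.7 and 295.4 CPM in the inhibitor group, 270 and 229.8 CPM in the knockdown group, and 269.9 and 251.8 CPM in the control. For L1Md_F and L1Md_F3 all 4 libraries with DS3201 lay above all 4 without it, 2 of the 6 entries, against 12.3% of all tested entries. The other 4 overlapped. The counts behind single values ran from 943 to 78501, so that counting error was at most 3.26% and small beside the difference between libraries.

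**Figure D1:**
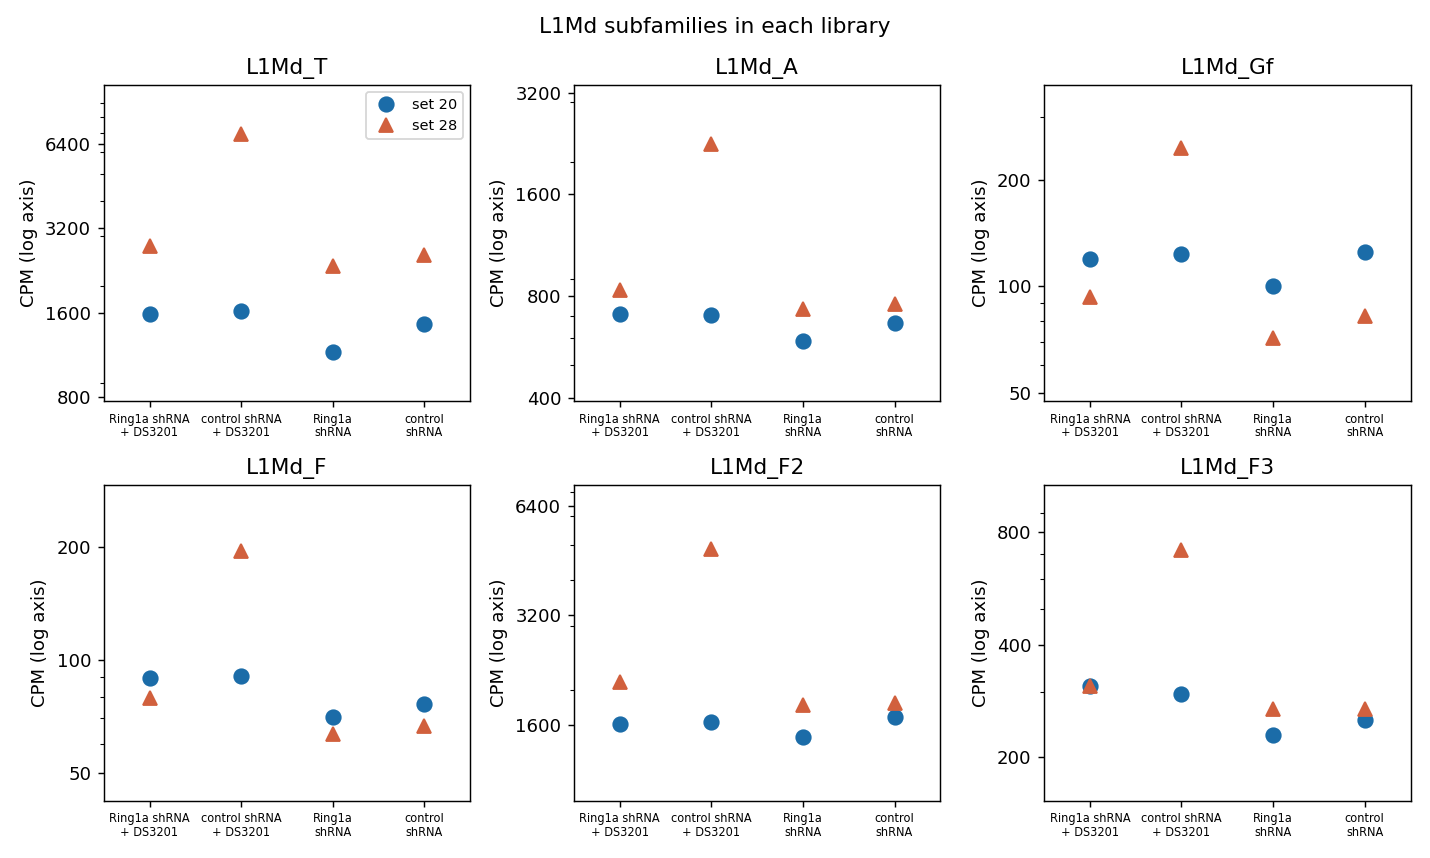
CPM (log axis) of the 6 L1Md subfamilies in each library, with circles for set 20 and triangles for set 28. The inhibitor library of set 28 is the highest point in every panel, for example at 6933.3 CPM for L1Md_T, and the other libraries lie close to their own set's control.

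DS3201 in cells with the control shRNA asked whether L1Md RNA depends on EZH1 and EZH2 activity where Ring1a is kept. None of the 6 subfamilies passed the test, while 0.726% of the 15287 tested entries did (edgeR quasi-likelihood test, adjusted p under 0.05) and 7.33% with the set as a replicate block. The fitted log2 fold changes were 1.08 ± 0.73 (SE) for L1Md_T, 1.06 ± 0.50 for L1Md_A, 0.83 ± 0.39 for L1Md_Gf, 1.00 ± 0.35 for L1Md_F, 0.89 ± 0.49 for L1Md_F2 and 0.95 ± 0.39 for L1Md_F3, with edgeR adjusted p from 0.305 to 0.614. The median of the 6 was 0.98, against 0.71 for the other L1 entries, 0.55 for all 894 tested repeats and 0.07 for all tested entries. At an unadjusted p under 0.05, edgeR had 2 of the 6 higher, where 12.4% of all entries passed, and with the block 4 of the 6, where 24.6% passed. DESeq2 called 0 of the 6, where it called 5.22% of entries, and had 3 at an unadjusted p under 0.05, where 13.7% of entries had one.

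These fold changes came from set 28. Within set 28 the inhibitor library exceeded its control by 1.42 for L1Md_T, 1.57 for L1Md_A, 1.58 for L1Md_Gf, 1.54 for L1Md_F, 1.41 for L1Md_F2 and 1.41 for L1Md_F3 on the log2 scale. Within set 20 the same differences were 0.15, 0.08, -0.02, 0.25, -0.05 and 0.23. A fit with the set as a block was also made on the 7 other libraries (the 7-library fit), in which the inhibitor group rests on 1 library that is taken to vary like the others. There the values were 0.12 ± 0.14 for L1Md_T, 0.05 ± 0.11 for L1Md_A, -0.02 ± 0.12 for L1Md_Gf, 0.20 ± 0.10 for L1Md_F, -0.04 ± 0.14 for L1Md_F2 and 0.18 ± 0.11 for L1Md_F3. None passed, where 5.81% of entries did, and none had an unadjusted p under 0.05, where 25.9% of entries did. For L1Md_F2 and L1Md_Gf the direction turned.

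DS3201 was also compared in cells with the Ring1a shRNA. Within set 28 the combined library lay above the knockdown library by 0.24 for L1Md_T, 0.19 for L1Md_A, 0.39 for L1Md_Gf, 0.32 for L1Md_F, 0.20 for L1Md_F2 and 0.20 for L1Md_F3 on the log2 scale. Within set 20 the differences were 0.45, 0.27, 0.25, 0.34, 0.12 and 0.44. These differences were smaller than those with the control shRNA in set 28 and larger than them in set 20, for all 6. All 6 subfamilies were higher with the inhibitor in both sets, and neither group holds the library that stood apart. So were 61.7% of the other L1 entries, 53.6% of all repeats and 36.8% of all tested entries. By name class of the other L1 entries, it was 87.5% of L1_Mur, L1_Rod and L1VL and 85.7% of Lx. It was 40% of L1_Mus and L1_Mm, and 54.7% of L1M, HAL1 and other entries.

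None of these passed (0 of 6, against 0.602% of all tested entries, and 0 of 6 against 6.88% with the block). The fitted values ran from 0.17 ± 0.48 for L1Md_F2 to 0.33 ± 0.35 for L1Md_F, and the adjusted p was at least 0.656 for every member, with or without the block. Neither edgeR fit had any of the 6 at an unadjusted p under 0.05, where 9.79% of all entries passed without the block, and DESeq2 called 0 of the 6 (4.3% of entries) with none at an unadjusted p under 0.05 (10.5% of entries). The spread in these fits includes the inhibitor library of set 28. In the 7-library fit the standard errors were between 0.08 and 0.11, and 1 of the 6 passed, against 13.2% of all entries. L1Md_F rose by 0.32 ± 0.08 (adjusted p = 0.0455), where 7.89% of entries rose. L1Md_F3 at 0.30 ± 0.09 (adjusted p = 0.067), L1Md_Gf at 0.31 ± 0.09 (adjusted p = 0.0781), L1Md_T at 0.33 ± 0.11 (adjusted p = 0.0899), L1Md_A at 0.21 ± 0.09 and L1Md_F2 at 0.15 ± 0.11 did not pass. The median over the 6 was 0.31 with all libraries, against 0.17 for the other L1 entries and 0.19 for all repeats.

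Averaged over both shRNAs, 4 libraries with DS3201 were set against 4 without it. None of the 6 subfamilies passed, against 5.46% of all tested entries without and 17.1% with the block. At an unadjusted p under 0.05 edgeR had 1 of the 6, where 17.7% of entries passed, and 3 with the block, where 32% passed, and DESeq2 called 0 (10.5% of entries) with 2 at an unadjusted p under 0.05 (19.4% of entries). L1Md_F had 0.66 ± 0.25 (adjusted p = 0.229) and L1Md_F2, the smallest, 0.53 ± 0.34 (adjusted p = 0.502). In the 7-library fit 1 of the 6 passed, against 26% of entries: L1Md_F rose by 0.26 ± 0.06 (adjusted p = 0.0288), where 14.2% of entries rose, and L1Md_F3 was at 0.24 ± 0.07 (adjusted p = 0.0508). Without the inhibitor library of set 20 instead, and with no block, 3 passed, where 6.96% of entries did, L1Md_F and L1Md_F3 at 0.88 and L1Md_A at 0.94, and the library that stood apart was then the whole inhibitor group. For comparison, MERVL-int, the internal domain of a retrovirus transcribed in 2-cell embryos, had 2360 and 977 CPM in the combined group, 2190 and 931 CPM in the inhibitor group, 256 and 170 CPM in the knockdown group, and 264 and 201 CPM in the control, in sets 28 and 20. It rose with DS3201 under both shRNAs with the replicate block (edgeR adjusted p = 0.00331 with the control shRNA and 0.0023 with the Ring1a shRNA), and not without the block (adjusted p = 0.107 and 0.0984).

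**Figure D2:**
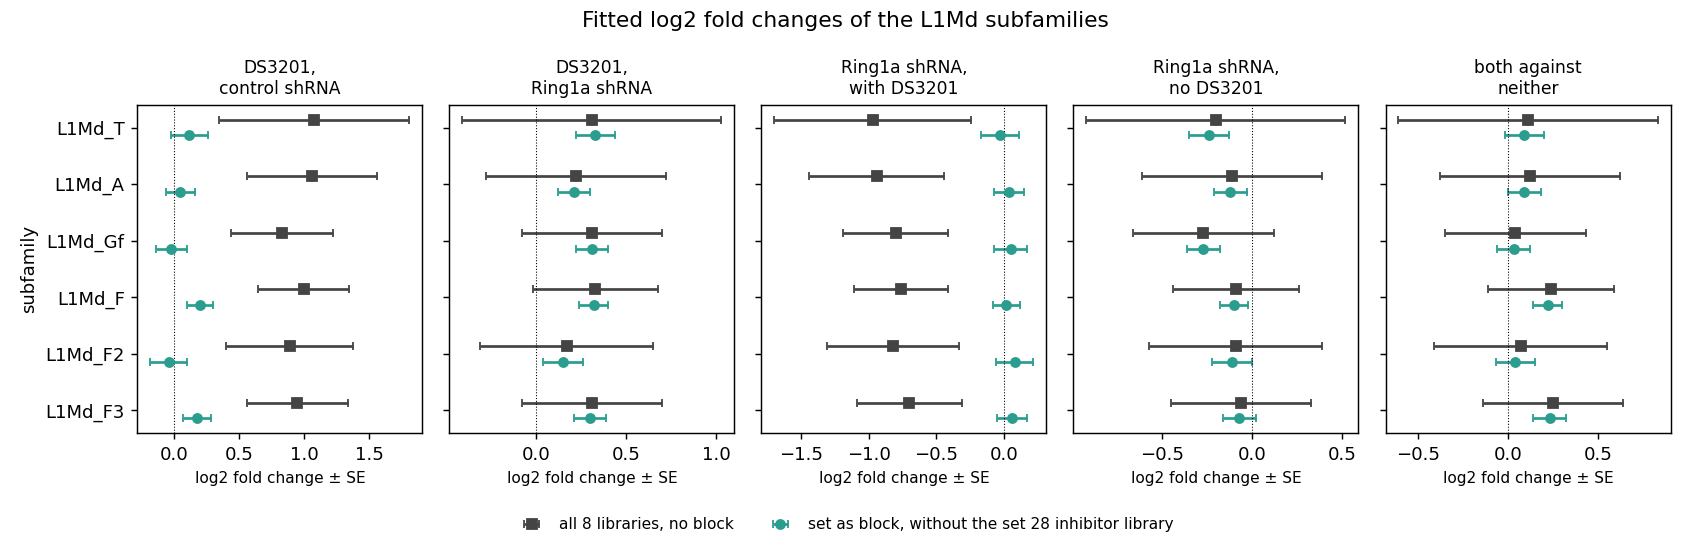
Fitted log2 fold changes with standard errors for the 6 L1Md subfamilies in 5 comparisons, from all 8 libraries without a block (squares) and from the 7-library fit with the set as a block (circles). For DS3201 with the control shRNA L1Md_T lies at 0.12 in the 7-library fit and at 1.08 with all libraries, and for DS3201 with the Ring1a shRNA at 0.33 and 0.31.

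The Ring1a knockdown without inhibitor asked whether the remaining PRC1 ligase holds L1Md RNA down. No subfamily passed. Each was lower in the knockdown library than in the control within set 20, by 0.11 (L1Md_F) to 0.32 (L1Md_T and L1Md_Gf) on the log2 scale. Within set 28 the differences were -0.14 for L1Md_T, -0.05 for L1Md_A, -0.20 for L1Md_Gf, -0.07 for L1Md_F, -0.01 for L1Md_F2 and 0.00 for L1Md_F3. The fitted values ran from -0.27 ± 0.39 for L1Md_Gf to -0.06 ± 0.39 for L1Md_F3 (0 of 6 past the threshold and 0% of all entries, adjusted p = 1 for each). In this comparison edgeR had 0 of the 6 at an unadjusted p under 0.05, where 1.01% of entries passed, and DESeq2 called 0 of the 6 and 0.00654% of entries. Without the block, the 95% interval of the fold change reached from 0.264 to 2.86 for L1Md_T and from 0.525 to 1.67 for L1Md_F. A rise of 2-fold is inside the first and outside the second. The spread there includes the difference between the sets and the inhibitor library of set 28. With the block the log2 fold changes were -0.24 ± 0.32 for L1Md_T and -0.09 ± 0.32 for L1Md_F.

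Under DS3201, the comparison of the combined with the inhibitor group also rested on the library that stood apart. The fitted values were negative, from -0.97 ± 0.73 for L1Md_T to -0.70 ± 0.39 for L1Md_F3 (0 of 6 past the threshold and 0% of all entries, edgeR adjusted p = 1). Within set 28 the combined library was lower by 1.21 (L1Md_F3) to 1.43 (L1Md_A) on the log2 scale. Within set 20 the differences lay between -0.05 (L1Md_Gf) and 0.07 (L1Md_F3). At an unadjusted p under 0.05 edgeR had 0 of the 6, where 1.78% of entries passed, and DESeq2 called 0 and 0.0327% of entries. In the 7-library fit the values lay between -0.03 ± 0.14 (L1Md_T) and 0.08 ± 0.14 (L1Md_F2). The interaction of the knockdown with DS3201 passed for 0 of 6, as for 0% of all entries (edgeR adjusted p = 1). For it, edgeR had 0 of the 6 at an unadjusted p under 0.05, where 0.15% of entries passed, and DESeq2 called 0 of the 6 and 0% of entries.

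The combined group against the control asked whether the loss of Ring1a together with EZH1 and EZH2 inhibition changes L1Md RNA. No subfamily passed. The fitted log2 fold changes were 0.11 ± 0.72 for L1Md_T, 0.12 ± 0.50 for L1Md_A, 0.04 ± 0.39 for L1Md_Gf, 0.24 ± 0.35 for L1Md_F, 0.07 ± 0.48 for L1Md_F2 and 0.25 ± 0.39 for L1Md_F3 (edgeR adjusted p from 0.912 to 0.994). This was 0 of 6, against 1.46% of entries without and 11.3% with the block. At an unadjusted p under 0.05 edgeR had 0 of the 6, where 13.2% of entries passed, and DESeq2 called 0 of the 6 and 6.83% of entries. Within the sets the differences ran from -0.07 (L1Md_Gf) to 0.30 (L1Md_F3) in set 20 and from 0.10 (L1Md_T) to 0.25 (L1Md_F) in set 28. Without the block, the 95% intervals of the fold change exclude values above 2.11 for L1Md_F and 1.96 for L1Md_Gf, and reach 3.56 for L1Md_T. Their spread includes the difference between the sets. With the block the log2 fold changes were 0.24 ± 0.32 for L1Md_F, 0.04 ± 0.37 for L1Md_Gf and 0.11 ± 0.32 for L1Md_T. This comparison uses neither inhibitor library, although the spread is shared with them. L1Md_F in the 7-library fit was at 0.22 ± 0.08 (adjusted p = 0.0861) and L1Md_F3 at 0.23 ± 0.09 (adjusted p = 0.0972), neither past the threshold, where 24% of all entries passed.

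The comparisons with DS3201 and the control or knockdown share libraries, so their values are not separate evidence for one another. Reads from L1 copies inside introns and untranslated regions of host genes were counted together with RNA from L1 promoters, as far as the table shows, and these sources cannot be told apart.

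Other L1 entries were high in the inhibitor library of set 28 as well. Its median excess over the control library of set 28 was 1.48 on the log2 scale for the 6 L1Md entries, 1.20 for the 5 L1_Mus and L1_Mm entries, 1.40 for the 8 L1_Mur, L1_Rod and L1VL entries, 1.08 for the 21 Lx entries, and 0.99 for the 86 L1M, HAL1 and other entries, the last of which include L1 copies old enough to be shared with other mammals. It was 0.79 for ERVK retroviruses, 0.56 for DNA transposons, 0.38 for SINEs and 0.11 for all tested entries. In the inhibitor library of set 20 the same medians against its own control were 0.12 for L1Md, -0.09, 0.06, 0.24 and 0.21 for the other classes of L1 in that order. All L1Md entries exceeded their control by more than 1 in the library of set 28, as did 56.7% of the other L1 entries and 16.2% of all entries, and no L1Md entry did in any other library.

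**Figure D3:**
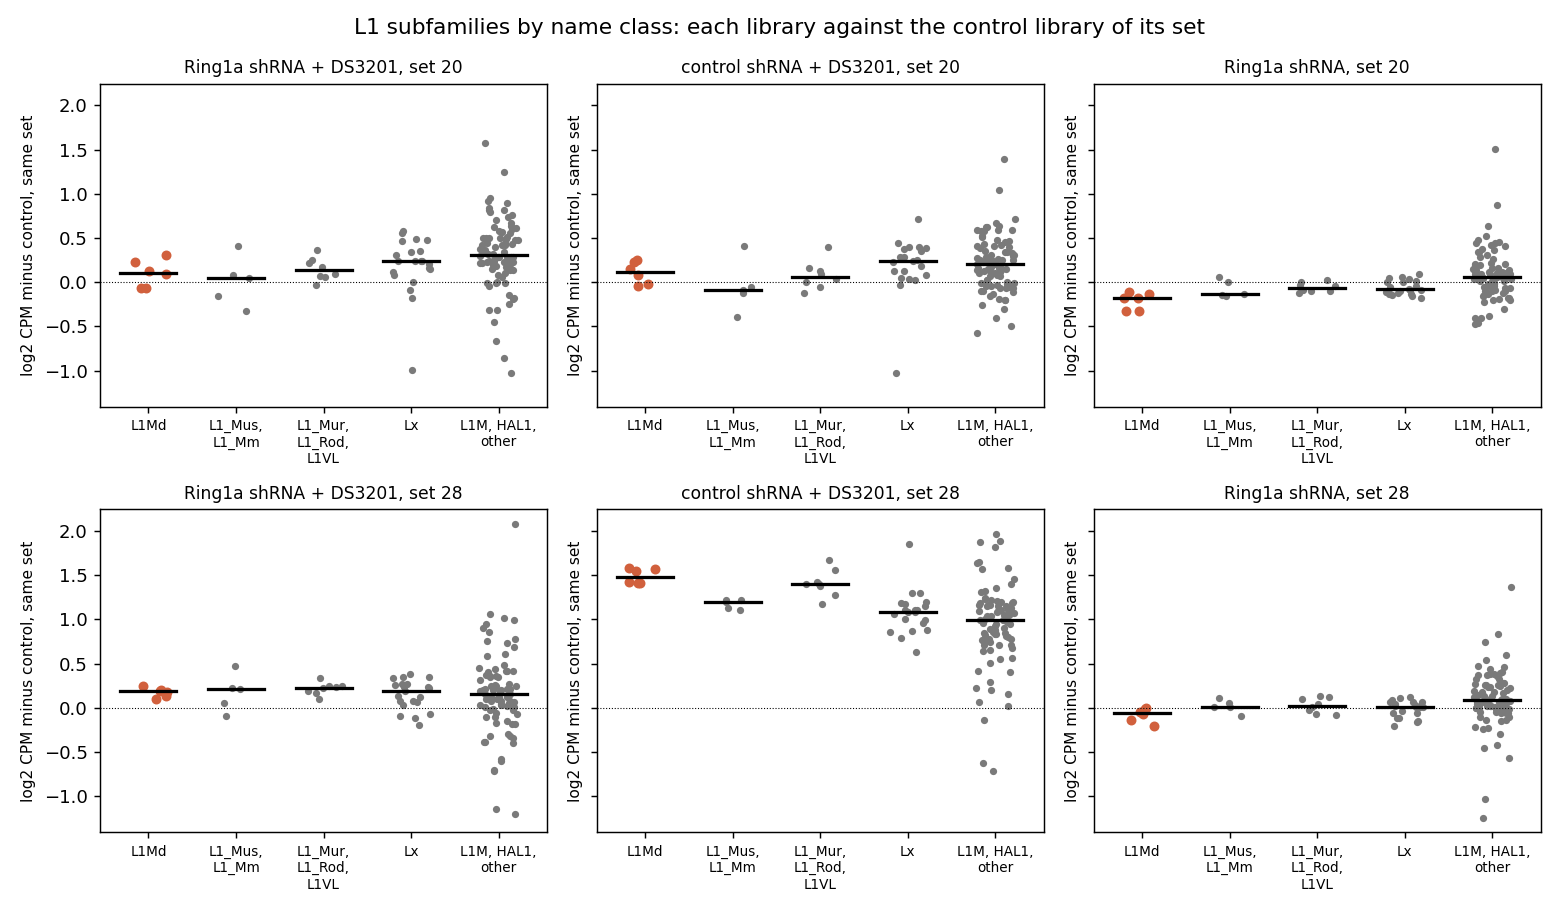
Log2 CPM of each L1 entry minus the control library of the same set, in the 6 other libraries, by name class. L1Md entries are in orange, other L1 entries in grey, and bars are medians. The control shRNA + DS3201 library of set 28 is raised in all 5 classes, with medians from 0.99 to 1.48.

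The same library also differed from the others by the base composition of genes, and less by their transcript length. For 13702 of the 14393 tested genes (95.2%) the GC content of the longest annotated transcript was available. Genes from 31.0 to 43.7% GC had a median of 0.49 against the control of set 28, and genes from 55.4 to 82.9% GC had a median of -0.58, with 0.27, 0.05 and -0.28 in the classes between. In the other 5 libraries the medians of these classes lay between -0.03 and 0.07. Among the 5% of genes with the lowest GC content the median was 0.64 in this library, below the 1.48 of the L1Md entries. Malat1, a nuclear noncoding RNA, was 375 and 179 CPM in the combined group, 653 and 193 CPM in the inhibitor group, 285 and 202 CPM in the knockdown group, and 296 and 216 CPM in the control, in sets 28 and 20. Neat1, another such RNA, was highest in the combined library of set 28. It was 145 and 58.1 CPM in the combined group, 124 and 56 CPM in the inhibitor group, 74.9 and 79.7 CPM in the knockdown group, and 53.8 and 67.3 CPM in the control. By length of the longest transcript, the inhibitor library of set 28 had medians of -0.12, -0.03, 0.02, 0.12 and 0.21, from the shortest to the longest class of genes. In the other libraries the medians of the length classes lay between -0.05 and 0.08. The part of base composition and of length in the L1Md values was not tested. These measures were chosen after the values had been seen.

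**Figure D4:**
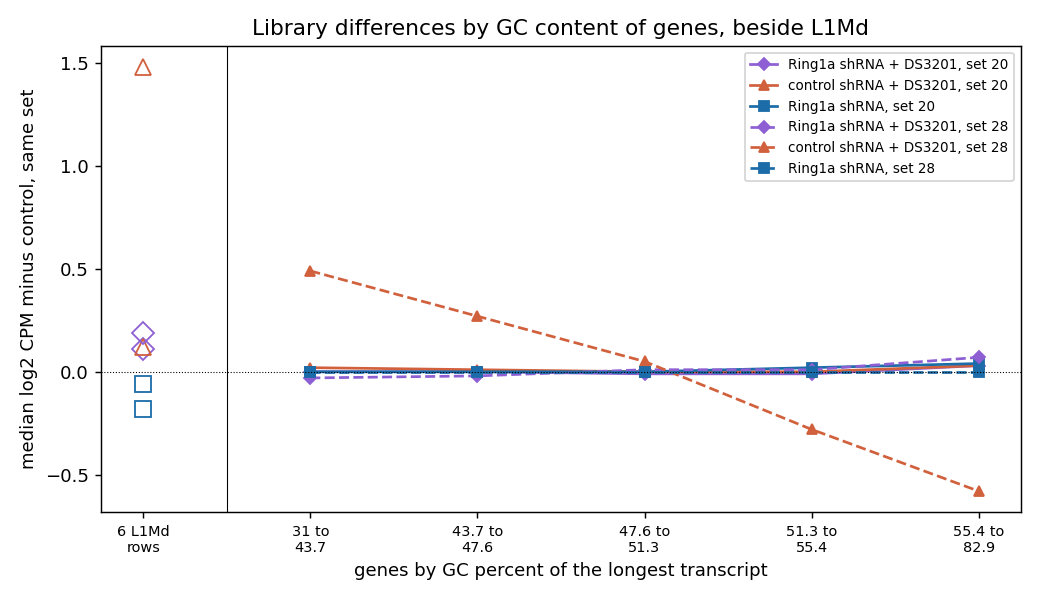
Median log2 CPM minus the control library of the same set, for genes in 5 classes of transcript GC content (filled symbols) and for the 6 L1Md entries (open symbols at left). The control shRNA + DS3201 library of set 28 falls from 0.49 to -0.58 across the classes, and the other libraries lie between -0.03 and 0.07.

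In the library that stood apart L1Md_T was 45.5% of all L1Md counts, against 46.2% in the control library of set 28, L1Md_F2 was 32.1%, against 32.8%, L1Md_F3 4.70%, against 4.82%, and L1Md_F 1.28%, against 1.19%. L1Md_A was 14.8%, against 13.5%, and L1Md_Gf 1.62%, against 1.47%, and for both the other libraries of set 28 lay lower. The shares also differed between the sets. They are parts of one total, so a higher share of L1Md_T lowers the others, and they are not separate observations. By the set term given below, 25.6% of all tested entries differed between the sets. L1Md_T ran from 44.2 to 46.2% of the pool in set 28 and from 32.1 to 36.3% in set 20. L1Md_Gf ran from 1.35 to 1.62% in set 28 and from 2.69 to 2.94% in set 20, and L1Md_F from 1.19 to 1.28% in set 28 and from 1.79 to 2.03% in set 20.

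As a test chosen after these values had been seen, the set term of the fit with the block was taken as the difference between set 28 and set 20 at equal group. L1Md_T was higher in set 28, by 1.18 ± 0.23 with all libraries (adjusted p = 0.0132) and 0.87 ± 0.09 without the inhibitor library of set 28 (adjusted p = 0.00143). L1Md_Gf was at -0.12 ± 0.27 with all libraries (adjusted p = 0.763) and was lower in set 28 without that library, at -0.49 ± 0.08 (adjusted p = 0.00534). The other 4 did not pass in either fit, with values without that library of 0.25 ± 0.09 for L1Md_F2, 0.23 ± 0.07 for L1Md_A, 0.10 ± 0.07 for L1Md_F3 and -0.18 ± 0.06 for L1Md_F (adjusted p from 0.0514 to 0.326). Differences between the sets were common: 25.6% of all tested entries passed with all libraries and 31.7% without that library.

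**Figure D5:**
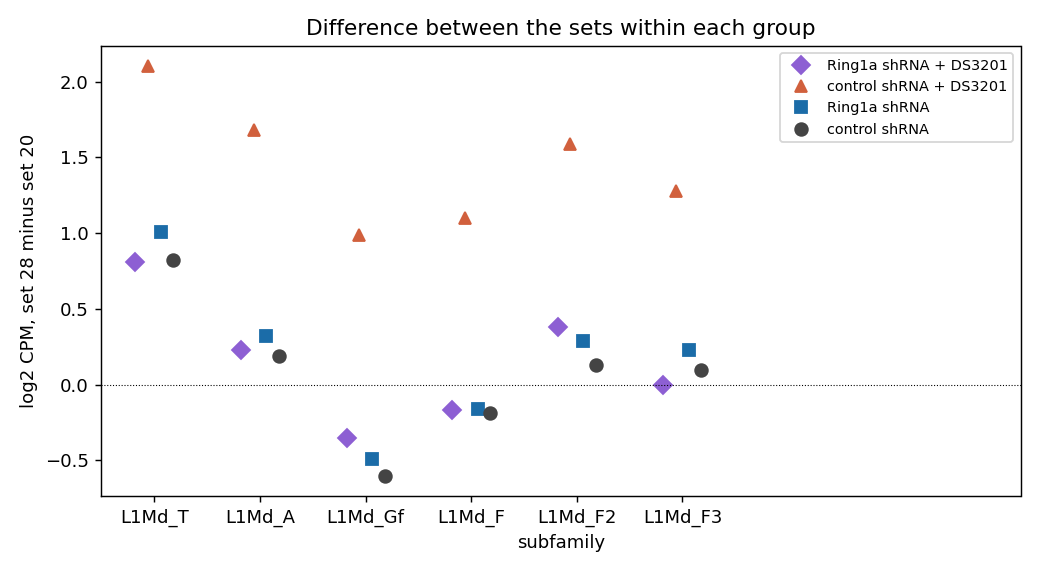
Log2 CPM in set 28 minus set 20 within each group, for the 6 L1Md subfamilies. In the groups other than the inhibitor group, L1Md_T lies from 0.81 to 1.01 and L1Md_Gf from -0.60 to -0.35. In the inhibitor group all 6 lie at 0.99 or above.

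Genes that act on L1 were read from 3 lists. Of 21 tested genes of L1 chromatin silencing, which include Trim28, the HUSH subunits and the DNA methyltransferases, 1 rose and none fell with DS3201 averaged over both shRNAs (edgeR, where 5.24% of all entries rose, with 1 rising and none falling also with the block). The 7-library fit had 2 that rose and 4 that fell, where 14.2% of entries rose and 11.8% fell. Trim28 rose there by 0.31 on the log2 scale (adjusted p = 0.0174), and the HUSH subunit Pphln1 fell by 0.22 (adjusted p = 0.0427), Hells by 0.22 (adjusted p = 0.0453), Atrx by 0.28 (adjusted p = 0.0351) and Chaf1b by 0.27 (adjusted p = 0.0288). With all libraries these 5 did not pass, with or without the block. The gene that rose in every one of these fits was Dnmt3b, a de novo DNA methyltransferase (chr2, 153649450 to 153687730, plus strand, mm10). It had 10.5 and 13.7 CPM in the combined group, 7.33 and 11.4 CPM in the inhibitor group, 4.17 and 5.69 CPM in the knockdown group, and 2.01 and 2.66 CPM in the control, in sets 28 and 20. Every library with DS3201 lay above every library without it, as for 12.3% of all tested entries. Dnmt3b rose by 1.64 ± 0.27 (edgeR adjusted p = 0.0221).

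Of 10 tested genes that restrict L1 RNA or its reverse transcription, none passed with DS3201 averaged over both shRNAs, and 2 fell with the replicate block, where 4.16% of all entries fell. Samhd1 degrades the nucleotides that reverse transcription needs (chr2, 157097533 to 157135265, minus strand). It had 144 and 130 CPM in the combined group, 179 and 158 CPM in the inhibitor group, 209 and 218 CPM in the knockdown group, and 224 and 251 CPM in the control, in sets 28 and 20, and fell by 0.57 on the log2 scale with the block (SE 0.11, adjusted p = 0.014, and 0.058 without the block). Mov10, an RNA helicase that limits L1 retrotransposition (chr3, 104794836 to 104818563, minus strand), had 34.7 and 41.8 CPM in the combined group, 20.2 and 59.1 CPM in the inhibitor group, 94.9 and 79.5 CPM in the knockdown group, and 79.7 and 78.5 CPM in the control. It fell by 1.15 with the block (SE 0.28, adjusted p = 0.0333, and 0.132 without the block), with its lowest value in the inhibitor library of set 28. For both genes the libraries with DS3201 lay below those without it, and the share of all entries with this order was not taken. In the 7-library fit the log2 fold changes were -0.66 for Samhd1 and -0.84 for Mov10. There Zc3hav1, an antiviral zinc finger protein, was at -0.21, whereas Apobec3 was at 0.48 and Rnaseh2c at 0.28.

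Of 16 genes of the germline piRNA pathway and of germline L1 silencing, 7 passed the filter on low counts. With DS3201 averaged over both shRNAs 1 rose, and 3 with the block, where 12.9% of all entries rose. The other 2 were Tdrd5, with 5 and 19 counts in the combined group, 10 and 28 in the inhibitor group, 0 and 5 in the knockdown group and 0 and 1 in the control, and Dnmt3l, with 2 and 20, 2 and 13, 0 and 0, and 1 and 0 counts in the same groups, in sets 28 and 20. Morc1, which silences L1 in male germ cells (chr16, 48431237 to 48630900, plus strand), had 27 and 9 counts in the combined group and 13 and 7 counts in the inhibitor group in sets 28 and 20, against 0 in all 4 libraries without DS3201. With 3 counts over those 4 libraries as the floor it was at least 23.2-fold higher with DS3201, a ratio of summed counts without a test. The edgeR fit with no block put Morc1 at 7 ± 1.17 on the log2 scale (adjusted p = 0.047). All its values stayed under 2 CPM. Summed over 4 libraries each, Morc1, Tdrd5 and Dnmt3l had 56, 62 and 37 counts with DS3201 and 0, 6 and 1 without it. They passed the filter on low counts only through the libraries with DS3201, so a fall could not have been found for them. The 3 of 7 that rose can therefore not be weighed against the share of all entries.

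Tex19.1, a germline and placental gene that restrains L1 in mouse cells (chr11, 121146143 to 121148319, plus strand), separated the sets. It had 2.30 and 86.2 CPM in the combined group, 0.53 and 89.0 CPM in the inhibitor group, 0.538 and 55.2 CPM in the knockdown group, and 1.07 and 70.1 CPM in the control, in sets 28 and 20. The set term of the fit with the block was -6.11 ± 0.32 for Tex19.1 (adjusted p = 0.000322). Across all 3 lists, 2 of 38 tested genes were higher and 9 were lower in set 28, against 11.7% higher and 13.9% lower among all entries.

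The entries whose level over the 8 libraries was most like the summed L1Md level were taken among 13732 entries with a mean of at least 1 CPM, by Pearson's r of log2 CPM. The points share libraries, depth and scaling, and 1 library lies far from the rest, so r is a description only. The 5 repeats highest in r were RLTR11A, an ERVK element (r = 0.992, and 0.962 without the inhibitor library of set 28), and the L1 entries L1VL4 (0.988 and 0.922), L1_Rod (0.987 and 0.907), Lx5 (0.979 and 0.843) and L1_Mur2 (0.978 and 0.965). The 5 genes were Epc2 (0.996 and 0.971), Nuf2, a kinetochore subunit (0.995 and 0.974), Ywhae, a 14-3-3 protein (0.991 and 0.940), Rbm17, a splicing factor (0.991 and 0.962), and Rb1cc1, of the autophagy initiation complex (0.991 and 0.942). Ywhae, for example, had 867 and 736 CPM in the combined group, 1700 and 708 CPM in the inhibitor group, 879 and 659 CPM in the knockdown group, and 867 and 685 CPM in the control, in sets 28 and 20.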

How the data were processed

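Poly(A) RNA libraries of 8 samples in 4 groups were analysed from 1 table of raw counts, whole numbers per gene and per repeat subfamily, as the authors deposited them. Per the submitters' processing notes, Trim Galore, TopHat2 and the build mm10 were used before counting. How reads with several alignments and read strand were handled, which matters for young repeats with near-identical copies, and which counting tool was used is not given in the sources used here. Columns were matched to groups by name, and the other 8 columns were not used. Counts were filtered with filterByExpr (15287 of 25215 entries kept), scaled by TMM and tested in edgeR 4.0.16 (R 4.3.3) with a quasi-likelihood model over all 8 libraries, two-sided, with Benjamini-Hochberg adjustment over all tested entries and a threshold of 0.05. Log2 CPM used a prior count of 2. Standard errors and 95% intervals come from the fit. DESeq2 1.42.0 and the other alternatives are in the closing section. EdgeR without the block and DESeq2 were tested on simulated data, and the fits with the block were not. With the spread of these data, edgeR recovered 3% of simulated 2-fold and 53% of simulated 4-fold changes for DS3201 against control. DESeq2 recovered 14% and 81%, and false calls numbered 5 for edgeR and 66 for DESeq2. A 2-fold change would thus seldom have passed in that comparison, and the absence of a call does not show that L1Md RNA was unchanged. The column prefix was taken as a replicate block in an alternative fit: the labels give each replicate number a batch, and the change from set 28 to set 20 in one group correlated with that in another, across entries, with r from 0.559 to 0.897 over the 6 pairs of groups. All 6 members are named in each comparison. From each list of genes that act on L1, up to 8 that passed were to be named per comparison, or, where none did, those that passed with the block. Here they are named for DS3201 averaged over both shRNAs only. Other comparisons had calls too, such as Dnmt3b in the combined group against the control (2.36 ± 0.39, edgeR adjusted p = 0.0479). Samhd1 passed there with the block (-0.79 ± 0.16, edgeR adjusted p = 0.0216). Resf1 and Dnmt3c of these lists were not used here, and Tasor stands as Fam208a. Positions, transcript GC content and transcript length are from GENCODE M21 (mm10). The set term and the GC and length classes were chosen after the data had been seen. The members and lists were chosen with earlier results of these data known.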

Additional observations from a re-analysis of the deposited data

How the results depend on the processing

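In each of the 7 comparisons 0 of the 6 L1Md subfamilies passed, and this count stayed at 0 under RLE size factors, scaling by gene entries alone, no filter on low counts, DESeq2, the replicate block and, where it could be run, a fit to only the libraries compared. Neither scaling moved the median of all entries by over 0.1 on the log2 scale. In the 7-library fit, with the replicate block and no inhibitor library of set 28, the count became 1 for DS3201 with the Ring1a shRNA and 1 for DS3201 averaged over both shRNAs, L1Md_F each time. With 1 library left out and no block, the count for DS3201 averaged over both shRNAs ran from 0 to 3, with 3 without the inhibitor library of set 20. The log2 fold changes that turned their sign had not passed in either direction, and beyond the library that stood apart the cause was not tested. In the 7-library fit those of DS3201 with the control shRNA became -0.04 (L1Md_F2) and -0.02 (L1Md_Gf). Those of the combined against the inhibitor group became 0.06 (L1Md_F3), 0.02 (L1Md_F), 0.04 (L1Md_A), 0.08 (L1Md_F2) and 0.05 (L1Md_Gf). Those of the interaction became 0.21 (L1Md_T), 0.13 (L1Md_F3), 0.12 (L1Md_F), 0.16 (L1Md_A), 0.19 (L1Md_F2) and 0.33 (L1Md_Gf). Without a filter L1Md_Gf was at -0.01 in the combined group against control. With 1 library left out at a time, the fold changes of the knockdown without inhibitor ran from -0.79 to 0.27 (L1Md_T), -0.18 to 0.03 (L1Md_F3), -0.19 to 0.01 (L1Md_F), -0.27 to 0.02 (L1Md_A), -0.25 to 0.03 (L1Md_F2) and -0.56 to 0.07 (L1Md_Gf). Those of DS3201 with the control shRNA ran from -0.37 to 1.78 (L1Md_T), -0.07 to 1.66 (L1Md_A) and -0.16 to 1.47 (L1Md_F2), each lowest without the inhibitor library of set 28. Those of the combined group against control ran from -0.35 to 0.58 (L1Md_T), -0.01 to 0.22 (L1Md_A), -0.13 to 0.24 (L1Md_F2) and -0.24 to 0.37 (L1Md_Gf). Those of the combined against the inhibitor group ran from -1.67 to 0.46 (L1Md_T), -1.20 to 0.11 (L1Md_F3), -1.55 to 0.16 (L1Md_A) and -1.40 to 0.22 (L1Md_F2). Those of DS3201 with the Ring1a shRNA ran from -0.15 to 0.90 (L1Md_T) and -0.04 to 0.34 (L1Md_F2), and those averaged over both shRNAs from -0.03 to 1.04 (L1Md_T) and 0.00 to 0.82 (L1Md_F2). Those of the interaction ran from -1.47 to 0.67 (L1Md_T), -1.14 to 0.17 (L1Md_F3), -1.11 to 0.03 (L1Md_F), -1.44 to 0.28 (L1Md_A), -1.31 to 0.32 (L1Md_F2) and -0.94 to 0.10 (L1Md_Gf). The lowest count behind any member's value was 943, and each group had 2 libraries.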
